A study of Mus musculus with 12 samples.

Results

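The 37 genes described here encode the steps by which a cell takes up glucose, splits it to pyruvate and either exports the product as lactate or admits it to the mitochondrion, together with Hif1a. They were taken by name as the steps of a pathway, with no threshold on a measured value, though earlier results of these data were known, out of 54114 genes with reads summed over GENCODE M21 transcripts. Of the 37 genes, 36 had enough reads to be tested, and Ldhb did not. The series holds RNA of eosinophils, granulocytes that circulate in blood and settle in tissues, sorted from 5 untreated male FVB/NJ mice of 20 weeks on chow. The 3 groups were eosinophils of gonadal white adipose tissue (mice 2846, 2807, 2683, 2668), of subcutaneous white adipose tissue (mice 2846, 2807, 2771, 2668) and of blood (mice 2807, 2771, 2683, 2668), with 4 libraries each. The sort kept live CD45+ CD11b+ Siglec-F+ cells. F4/80 was stained as well but is not part of the stated gate, and fat, but not blood, had been digested with collagenase. Values of single libraries are given in this order of mice.

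Glycolysis turns glucose into pyruvate in the cytosol, with control points at hexokinase, phosphofructokinase and pyruvate kinase. Pyruvate is either reduced to lactate, which leaves the cell through monocarboxylate transporters, or carried into the mitochondrion, where the pyruvate dehydrogenase complex turns it into acetyl-CoA. Granulocytes such as neutrophils are known to depend largely on glycolysis for energy, and the hypoxia-inducible factor raises transcription of many of these genes when oxygen is low.

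Levels are read counts scaled by edgeR's TMM-adjusted library sizes (CPM), and a gene is called where the edgeR quasi-likelihood test gave an adjusted p under 0.05 over 15367 genes. Estimated reads came to 4379954 in the subcutaneous library of mouse 2846 and to 12477671 to 23734940 in the remaining 11. In that library 28% of reads were mitochondrial ribosomal RNA, against 4.64% to 8.74% elsewhere, so results that turn on it are given with and without it. The sort markers were present in all groups, with Siglecf at 189.3 to 523.7 CPM in gonadal adipose, 148.8 to 466.9 CPM in subcutaneous adipose and 231.1 to 324.2 CPM in blood. Of 12 eosinophil markers, 6 fell in each depot and none rose. The 12 summed to 3736 to 8239 CPM in gonadal and 3414 to 7998 CPM in subcutaneous adipose. In blood the sum was higher, at 9234 to 10540 CPM, and over all libraries 37.7% of it was Ptprc, which encodes the CD45 of the sort gate. Ccr3 was wholly lower in the depots, at 379.0 to 905.9 CPM in gonadal and 376.1 to 1160 CPM in subcutaneous adipose. In blood it had 1359 to 1649 CPM, whereas Il5ra and Adgre1 overlapped between blood and each depot. The granule protein genes Prg2 and Epx, named after their values were seen, reached at most 4.76 and 7.69 CPM in any library. Of 10 macrophage markers, led by Csf1r, 5 rose in gonadal and 7 in subcutaneous adipose. Their sum was 825.5 to 2615 CPM in gonadal adipose, 943.4 to 3145 CPM in subcutaneous adipose and 333.4 to 642.5 CPM in blood, and none of the 10 was at 0 in any group. All 7 fibroblast markers rose in both depots, to sums of 82.9 to 465.2 CPM in gonadal adipose and 142.0 to 4104 CPM in subcutaneous adipose, against 0.262 to 11.4 CPM in blood. The highest of these sums was that of the subcutaneous library of mouse 2846. All 6 neutrophil markers tested fell in both depots, to sums of 184.7 to 406.4 CPM in gonadal adipose and 167.8 to 678.3 CPM in subcutaneous adipose, against 2373 to 3699 CPM in blood, 91.1% of the reads being Retnlg over all libraries. Ly6g and Camp, the remaining genes of that list, had too few reads in any group to be tested and were at 0 in both depots. Genes of the early response to stimulation and tissue dissociation rose too, 14 of 15 in gonadal and 15 of 15 in subcutaneous adipose. The part of other cells and of dissociation in the values below was not tested, and in sorted bulk RNA fewer cells of a type and less RNA per cell cannot be told apart.

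The pathway did not move as a block. In gonadal adipose against blood, 5 of the 36 genes rose (Pfkp, Pgam1, Eno2, Slc16a3 and Hif1a) and 1 fell (Pfkfb4). That is 16.7% of the genes tested, below the 27% of all tested genes that were called in this comparison (15.4% higher and 11.6% lower). In subcutaneous adipose against blood, 6 rose (Pfkm, Pfkp, Pfkfb2, Pfkfb3, Eno2 and Slc16a3) and 6 fell (Hk1, Pfkfb4, Aldoa, Eno1, Ldha and Pdk2), together 33.3%, against 26.8% of all tested genes (15.4% higher and 11.4% lower). A fit that blocks on the animal left 3 higher and 5 lower in subcutaneous adipose. The median log2 fold change of the 36 genes was 0.10 in gonadal and -0.03 in subcutaneous adipose, beside 0.08 and 0.07 for all tested genes. The 4 libraries of gonadal adipose lay wholly above the 4 of blood for 10 genes and wholly below them for 4, a pattern shown by 36.3% of all tested genes (18.6% above and 17.7% below). For subcutaneous adipose these numbers were 6 and 7, with 29.5% of all tested genes apart (13.8% above and 15.7% below). Both comparisons use the same blood libraries. Between them 4 genes were called in both depots, 2 in gonadal adipose alone and 8 in subcutaneous adipose alone. The matching shares of all tested genes were not counted, so these 3 numbers are not read as a result about the pathway. None of the 36 was called between the depots, where 0.00651% of all tested genes were called, so a call in 1 depot alone does not show that the depots differ. Single libraries moved the gonadal counts. When either the gonadal library of mouse 2668 or a blood library (mouse 2771, 2683 or 2668) was left out, 3 genes rose, and 3 genes fell without the subcutaneous library of mouse 2846 and 2 without that of mouse 2771.

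**Figure D1:**
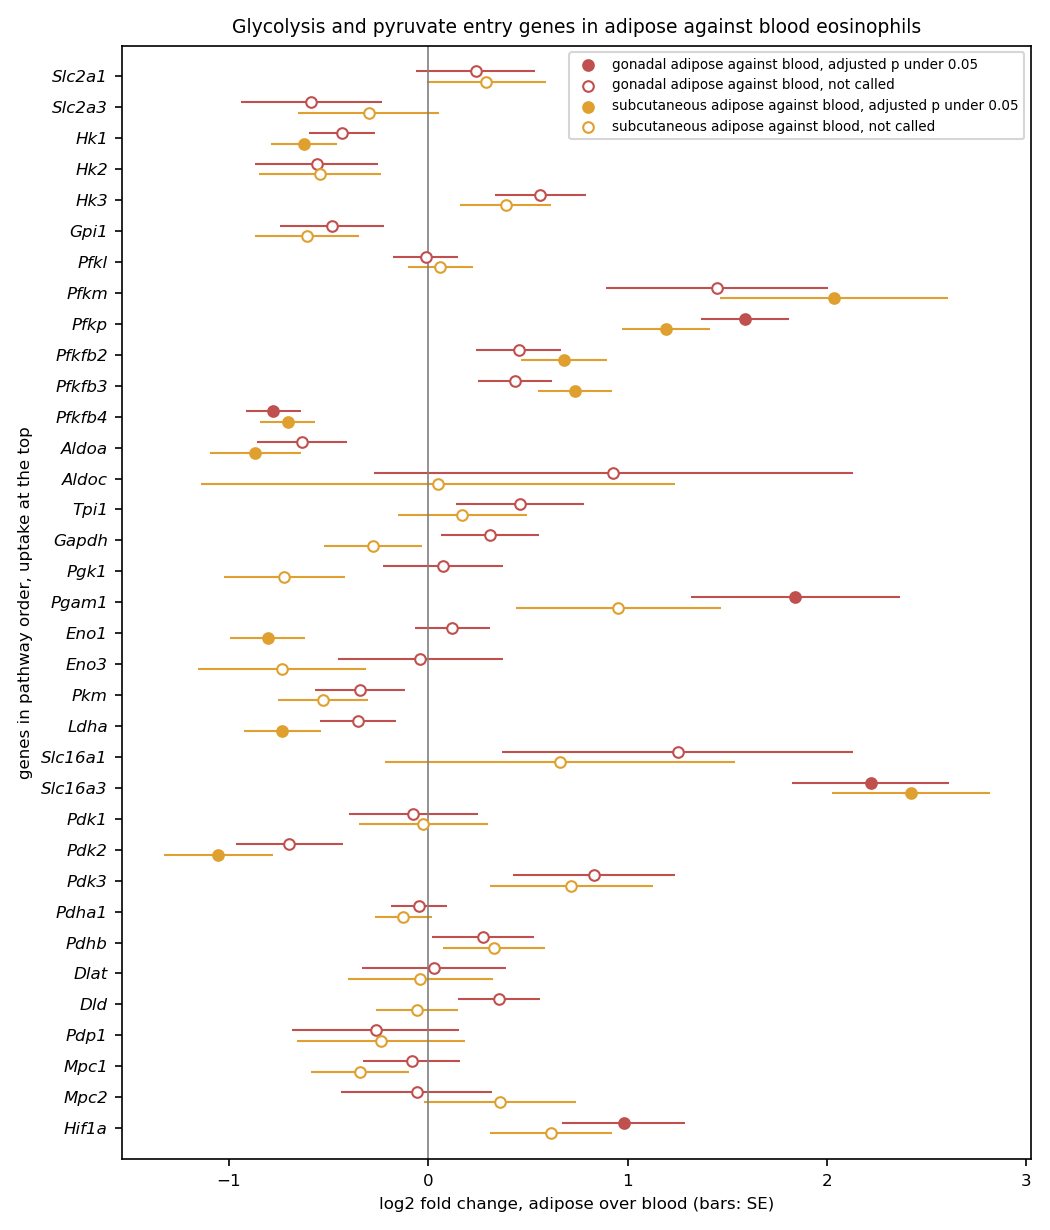
Log2 fold change of adipose over blood eosinophils (x axis, bars SE) for 35 of the genes in pathway order, with gonadal adipose above subcutaneous adipose for each gene and filled points for edgeR adjusted p under 0.05. Slc16a3 stands farthest to the right, at 2.22 and 2.42, and Pdk2 in subcutaneous adipose farthest to the left, at -1.05; Eno2, with 1 read in blood, and Ldhb, not tested, are left out.

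The promoters of 4 genes whose call stands in the overview above are shown because the hypoxia-inducible factor binds a short core, ACGTG or GCGTG, and Hif1a itself was among the genes that rose in gonadal adipose. They are the 250 bases before the RefSeq transcription start in GRCm38.p6, written 5′ to 3′ on the gene's strand: Slc16a3 at chr11:120948817-120949066 (plus strand), Pfkp at chr13:6648772-6649021 (minus strand), Pgam1 at chr19:41911621-41911870 (plus strand) and Pfkfb4 at chr9:108991652-108991901 (plus strand). Capitals mark ACGTG or GCGTG on either strand.
Slc16a3: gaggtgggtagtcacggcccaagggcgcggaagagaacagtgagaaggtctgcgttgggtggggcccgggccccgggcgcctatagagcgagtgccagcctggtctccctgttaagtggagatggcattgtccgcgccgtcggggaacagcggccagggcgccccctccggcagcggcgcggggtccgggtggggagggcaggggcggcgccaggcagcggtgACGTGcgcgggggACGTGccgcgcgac
Pfkp: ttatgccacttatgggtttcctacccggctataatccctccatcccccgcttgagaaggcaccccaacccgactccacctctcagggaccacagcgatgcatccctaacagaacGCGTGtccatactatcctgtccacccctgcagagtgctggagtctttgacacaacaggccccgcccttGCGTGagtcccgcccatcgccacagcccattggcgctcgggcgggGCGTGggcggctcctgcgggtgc
Pgam1: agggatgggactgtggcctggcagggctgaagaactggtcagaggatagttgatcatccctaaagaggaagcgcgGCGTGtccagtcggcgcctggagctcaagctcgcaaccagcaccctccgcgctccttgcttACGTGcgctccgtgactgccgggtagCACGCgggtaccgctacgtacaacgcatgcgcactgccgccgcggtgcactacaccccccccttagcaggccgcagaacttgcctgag
Pfkfb4: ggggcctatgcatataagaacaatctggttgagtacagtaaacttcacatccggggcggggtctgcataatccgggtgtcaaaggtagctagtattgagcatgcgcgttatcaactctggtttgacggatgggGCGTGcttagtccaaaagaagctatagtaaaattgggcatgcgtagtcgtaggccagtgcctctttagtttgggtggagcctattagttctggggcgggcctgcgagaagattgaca
The 2 matches of Slc16a3 began 27 and 14 bases before the start, and the 3 of Pfkp, all GCGTG, began 136, 68 and 23 bases before it. Pgam1 held 3 matches, at 175, 114 and 88 bases, the last on the opposite strand. Pfkfb4, which fell in both depots, held 1 match at 117 bases, and Eno2, which rose in both, held none in this window. The other called genes held matches too, whichever way they moved. Of those called lower in subcutaneous adipose alone, a single window held up to 5 in Ldha, 3 in Hk1, 2 in Pdk2, 2 in Eno1 and 1 in Aldoa. Of those called higher in 1 depot alone, it held up to 4 in Pfkfb2, 3 in Pfkfb3, 3 in Hif1a and 2 in Pfkm. RefSeq gave 52 promoters for 35 of the 37 genes, and 76.9% of them held at least 1 match, against 44.0% of the 21262 promoters of protein-coding genes and 38.6% of all 32851 in the table. CACGTG holds the core on both strands and was counted on each, some windows of 1 gene overlap, and base composition was not matched. For 41 of the 52 promoters the bases just after the start were found in a GENCODE M21 transcript of the same gene. A match is a string of letters and not a measured binding site, and its part in any call was not tested.

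Glucose enters through facilitative transporters, and neither transporter gene was called. Slc2a3 encodes the high-affinity GLUT3. It had 209.2, 312.0, 120.8 and 417.3 CPM in gonadal adipose, 197.7, 381.9, 235.2 and 477.1 CPM in subcutaneous adipose, and 318.5, 420.8, 445.1 and 406.2 CPM in blood. Blood overlapped both depots, with log2 fold changes of -0.59 (SE 0.35, edgeR adjusted p = 0.241) in gonadal and -0.30 (SE 0.35, edgeR adjusted p = 0.561) in subcutaneous adipose. Slc2a1, which encodes the widely expressed GLUT1, averaged 71.0 ± 28.2 CPM in gonadal adipose, 73.5 ± 26.2 CPM in subcutaneous adipose and 60.2 ± 7.46 CPM in blood (SD over 4 libraries each). Per length, in deposited TPM, Slc2a3 gave most of the transporter RNA in every library. Slc2a1 took 13.2% to 20.2% of the summed TPM of the pair in gonadal adipose and 13.4% to 22.7% in subcutaneous adipose, against 7.42% to 10.1% in blood, so that its share was higher in all 8 adipose libraries than in any blood library. These shares include transcripts that do not code for protein. Protein-coding Slc2a1 transcripts had 18.9 to 67.2 CPM in gonadal adipose, 12.6 to 63.8 CPM in subcutaneous adipose and 28.7 to 47.2 CPM in blood, and so overlapped. Retained-intron transcripts held 37.4% to 50.2% of Slc2a3 reads in gonadal adipose, 40.6% to 55.4% in subcutaneous adipose and 37.9% to 49.5% in blood.

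Hexokinase traps glucose by phosphorylating it. Hk1, the broadly expressed form (chr10:62268855-62379908), was lower in both depots. It had 88.6, 76.7, 80.2 and 91.4 CPM in gonadal adipose, 65.6, 86.6, 53.6 and 89.3 CPM in subcutaneous adipose and 109.0, 103.7, 113.7 and 128.1 CPM in blood. All 8 adipose libraries were below all 4 of blood. Hk1 was called in subcutaneous adipose, 1.54-fold lower (log2 fold change -0.62, SE 0.17, edgeR adjusted p = 0.0159, and 0.0526 without the blood library of mouse 2668). With an offset for effective transcript length it was not called (-0.35, edgeR adjusted p = 0.343), nor without subcutaneous mouse 2846 and blood mouse 2807 together (-0.58, edgeR adjusted p = 0.0547). In gonadal adipose it was -0.43 (SE 0.17, edgeR adjusted p = 0.0691; leaving out subcutaneous mouse 2771 gave 0.0366). Hk2, the form induced by insulin in muscle and fat, had 193.6, 206.3, 113.7 and 293.8 CPM in gonadal adipose, 117.7, 215.3, 158.4 and 323.6 CPM in subcutaneous adipose, and 269.8, 313.4, 277.4 and 328.2 CPM in blood. Mouse 2668 was the highest of each depot and reached the blood range, and the gene was not called, at -0.56 in gonadal and -0.54 in subcutaneous adipose (SE 0.31 each, edgeR adjusted p = 0.199 and 0.208). When subcutaneous mouse 2668 was left out, Hk2 was called there (-0.85, edgeR adjusted p = 0.0495). Hk3, the hexokinase of leukocytes, averaged 68.4 ± 16.9 CPM in gonadal adipose, 60.8 ± 15.9 CPM in subcutaneous adipose and 46.4 ± 8.46 CPM in blood (SD over 4 libraries each) and was not called (edgeR adjusted p = 0.085 and 0.225). Of the summed hexokinase TPM, Hk2 held a median of 48.0% in gonadal adipose, 44.7% in subcutaneous adipose and 57.3% in blood, and the ranges overlapped. Gpi1, the isomerase of the next step, averaged 306.7 ± 91.1 CPM in gonadal adipose, 281.4 ± 106.6 CPM in subcutaneous adipose and 428.7 ± 50.2 CPM in blood (SD over 4 libraries each). It was not called (edgeR adjusted p = 0.187 and 0.101), except in subcutaneous adipose without the library of mouse 2668 (edgeR adjusted p = 0.0193). Transcripts that retain an intron held 41.0% to 64.0% of Gpi1 reads in gonadal and 60.2% to 83.4% in subcutaneous adipose. In blood they held 33.6% to 49.3%. Its protein-coding transcripts had 64.3 to 136.1 CPM in gonadal adipose and 0 to 100.9 CPM in subcutaneous adipose. Both ranges lay below the 165.9 to 193.6 CPM of blood, but the fit on protein-coding transcripts did not call Gpi1 either.

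Phosphofructokinase commits the sugar to glycolysis. Its platelet-type subunit gene Pfkp (chr13:6579768-6648777, minus strand) rose in both depots. Pfkp had 131.8, 80.3, 136.2 and 98.2 CPM in gonadal adipose, 110.2, 61.3, 81.5 and 87.0 CPM in subcutaneous adipose, and 46.3, 29.9, 38.5 and 33.6 CPM in blood. Every adipose library was above every blood library. The rise was 3.01-fold in gonadal adipose (log2 fold change 1.59, SE 0.22, edgeR adjusted p = 0.000372) and 2.29-fold in subcutaneous adipose (1.19, SE 0.22, edgeR adjusted p = 0.00227). Most of it lay in annotated transcripts that retain an intron, of which Pfkp has 7. These had 68.5, 52.0, 68.3 and 71.2 CPM in gonadal adipose, 78.4, 38.9, 50.2 and 65.5 CPM in subcutaneous adipose, and 13.1, 11.5, 14.6 and 13.2 CPM in blood. The protein-coding transcripts had 63.3, 25.3, 67.8 and 26.9 CPM in gonadal adipose, 31.8, 22.5, 31.2 and 20.7 CPM in subcutaneous adipose, and 33.2, 18.4, 23.9 and 20.4 CPM in blood, so that these ranges overlapped. Summed over protein-coding transcripts alone, Pfkp was not called, with log2 fold changes of 0.90 (edgeR adjusted p = 0.063) in gonadal and 0.23 (edgeR adjusted p = 0.658) in subcutaneous adipose. Retained-intron transcripts held 50.1% to 72.6% of Pfkp reads in gonadal adipose, 61.7% to 75.3% in subcutaneous adipose and 28.2% to 39.3% in blood.

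Pfkl, the liver-type subunit, showed no such difference, at 34.8 ± 4.47 CPM in gonadal adipose, 36.5 ± 6.95 CPM in subcutaneous adipose and 35.1 ± 2.44 CPM in blood (SD over 4 libraries each). Its log2 fold changes were -0.01 (SE 0.16) and 0.06 (SE 0.16). Pfkm, the muscle-type subunit, was scarce. It had 4.004, 5.26, 5.69 and 3.05 CPM in gonadal adipose, 14.1, 2.38, 8.42 and 2.72 CPM in subcutaneous adipose, and 2.20, 1.83, 1.47 and 1.09 CPM in blood. All adipose values were above all blood values. Pfkm was called in subcutaneous adipose (log2 fold change 2.04, SE 0.57, edgeR adjusted p = 0.0201). The edgeR adjusted p was 0.0933 with mouse as a block, 0.197 with the length offset and 0.0502 to 0.0618 without any 1 of the subcutaneous libraries of mice 2846 and 2771 and the blood libraries of mice 2683 and 2668. In gonadal adipose it was 1.45 (SE 0.56, edgeR adjusted p = 0.0711, or 0.0349 without subcutaneous mouse 2846). In all, 3 of 20 alternatives called Pfkm there, DESeq2 among them. By share of phosphofructokinase TPM, Pfkp held 66.1% to 74.2% in gonadal adipose, 45.9% to 65.1% in subcutaneous adipose and 32.3% to 45.1% in blood, where Pfkl held a median of 64.9%. These TPM shares include the retained-intron transcripts of Pfkp.

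The PFKFB enzymes make and remove the sugar bisphosphate that switches phosphofructokinase on. Pfkfb4 (chr9:108991778-109032228) fell in both depots. It had 36.7, 29.9, 33.1 and 30.6 CPM in gonadal adipose, 39.8, 34.1, 33.3 and 30.2 CPM in subcutaneous adipose, and 49.97, 55.5, 60.7 and 57.4 CPM in blood. All 8 adipose libraries were below all 4 of blood, and they were close to each other. The fall was 1.71-fold in gonadal adipose (log2 fold change -0.78, SE 0.14, edgeR adjusted p = 0.00178) and 1.63-fold in subcutaneous adipose (-0.71, SE 0.14, edgeR adjusted p = 0.00332). With an offset for effective transcript length the edgeR adjusted p was 0.116 in gonadal adipose (-0.76) and 0.653 in subcutaneous adipose (-0.23), and on protein-coding transcripts alone it was 0.213 in gonadal adipose.

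Pfkfb3, the form with the highest kinase activity relative to its phosphatase activity, stood the other way. It had 80.4, 125.2, 82.3 and 87.3 CPM in gonadal adipose, 130.0, 102.9, 142.8 and 86.2 CPM in subcutaneous adipose, and 62.9, 72.6, 71.3 and 70.3 CPM in blood. Every adipose library exceeded the highest blood library. Pfkfb3 was called in subcutaneous adipose, 1.67-fold higher (log2 fold change 0.74, SE 0.19, edgeR adjusted p = 0.0124, or 0.05002 and so not called when blocked on the animal), and not in gonadal adipose (0.44, SE 0.18, edgeR adjusted p = 0.0969). Pfkfb2, a form of heart and other tissues that is regulated by phosphorylation, had 16.1, 20.2, 14.5 and 14.1 CPM in gonadal adipose, 23.4, 16.7, 19.3 and 17.1 CPM in subcutaneous adipose, and 10.9, 13.7, 8.96 and 13.9 CPM in blood. Both depots lay wholly above blood and overlapped each other, and the lowest gonadal and the highest blood library were close. Its subcutaneous call (log2 fold change 0.68, SE 0.22, edgeR adjusted p = 0.0338) was lost under 12 of 20 alternatives, among them mouse as a block (edgeR adjusted p = 0.136), no filter on low counts (0.0934), the length offset (0.0541) and protein-coding transcripts alone (0.0533). It was also lost, with an edgeR adjusted p of 0.0526 to 0.103, without any 1 of the blood libraries, the subcutaneous libraries of mice 2846 and 2771 or the gonadal library of mouse 2846. Of the summed PFKFB TPM, Pfkfb3 held a median of 67.6% in gonadal adipose, 65.8% in subcutaneous adipose and 53.0% in blood, and Pfkfb4 held 23.4%, 25.4% and 41.0%.

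**Figure D2:**
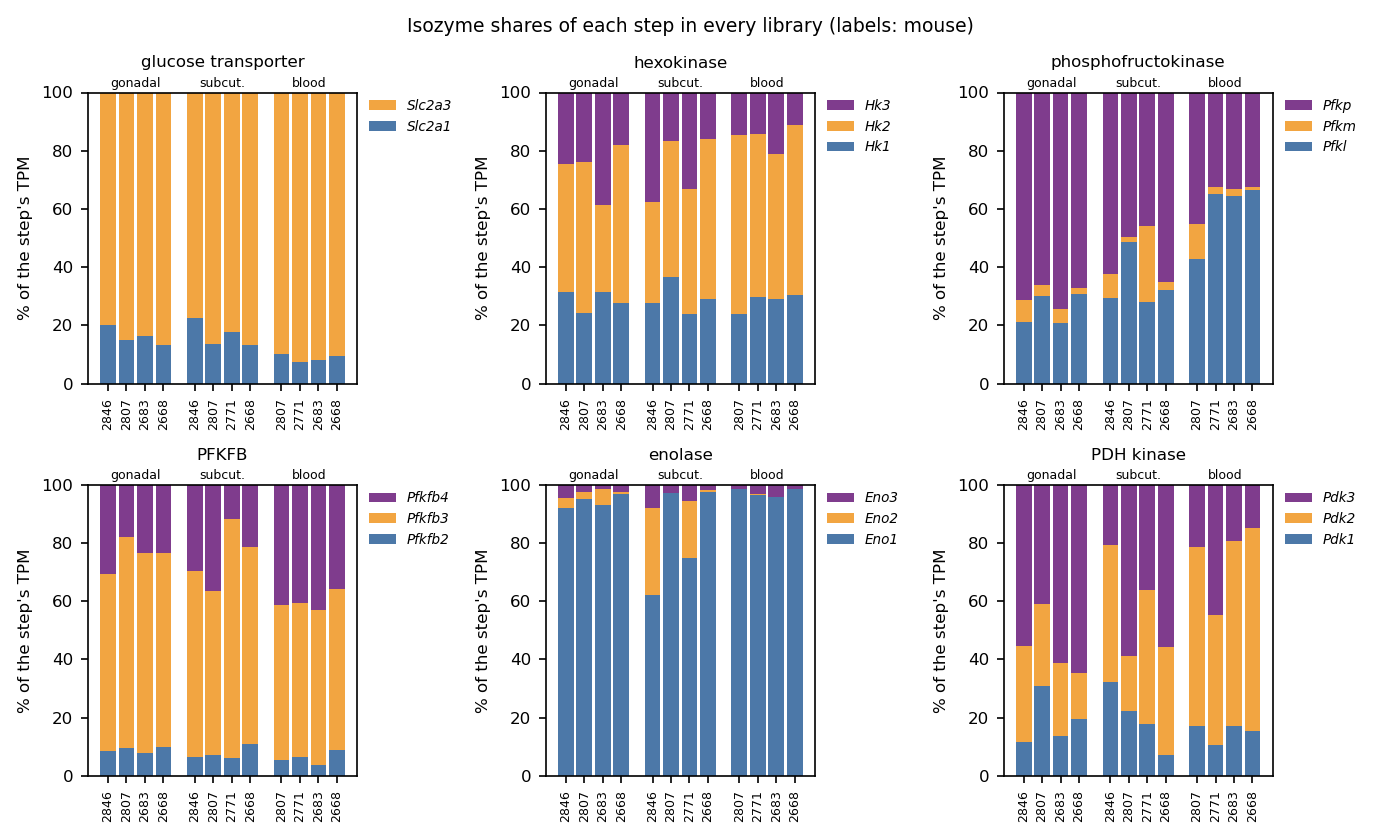
Share of each isozyme in the summed TPM of its step (y axis, percent) in each of the 12 libraries, labelled by mouse, with gonadal adipose at the left, subcutaneous adipose in the middle and blood at the right. Pfkp holds 66.1% to 74.2% of the phosphofructokinase TPM in gonadal adipose and 32.3% to 45.1% in blood. Each sum covers only genes of the set described here, so others of a step, such as the kinase gene Pdk4, are left out. Pdk4 had 5.18 to 53.5 CPM in gonadal adipose and 0 in blood.

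Aldolase splits the sugar into a pair of trioses, and Aldoa was the only aldolase gene with more than a trace of RNA, at 99.3% to 100% of aldolase TPM in every group. Aldoa (chr7:126795234-126800751, minus strand) had 314.4, 300.9, 292.7 and 377.5 CPM in gonadal adipose, 157.2, 345.4, 237.5 and 351.8 CPM in subcutaneous adipose, and 438.2, 472.0, 538.6 and 544.3 CPM in blood. All adipose libraries were below all blood libraries. It fell 1.82-fold in subcutaneous adipose (log2 fold change -0.87, SE 0.23, edgeR adjusted p = 0.0151). In gonadal adipose the value was -0.63 (SE 0.23, edgeR adjusted p = 0.0549), which was called without the subcutaneous library of mouse 2846 (-0.62, edgeR adjusted p = 0.0145). In all, 5 of 20 alternatives called Aldoa there, among them DESeq2, RLE size factors and protein-coding transcripts alone. Tpi1, which interconverts the trioses, averaged 23.1 ± 8.73 CPM in gonadal adipose, 18.9 ± 6.66 CPM in subcutaneous adipose and 16.8 ± 0.708 CPM in blood (SD over 4 libraries each) and was not called (edgeR adjusted p = 0.317 and 0.728).

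Gapdh, the triose dehydrogenase often used as a reference gene, had 127.6, 107.9, 145.8 and 122.9 CPM in gonadal adipose, 41.0, 82.2, 98.7 and 112.6 CPM in subcutaneous adipose, and 99.0, 84.2, 103.4 and 120.7 CPM in blood. The lowest value was that of the subcutaneous library of mouse 2846, and both depots overlapped blood (log2 fold changes 0.31 and -0.28, SE 0.25 each, edgeR adjusted p = 0.383 and 0.428). The annotation lists 173 near-identical copies of Gapdh, 49 of them with at least 10 reads, and the quantification split reads among them. The copies took 40.5% to 50.9% of the reads of gene and copies in gonadal adipose, 43.5% to 66.8% in subcutaneous adipose and 50.3% to 52.8% in blood, most of them assigned to Gm13394. With the copies added, Gapdh was not called either (log2 fold changes 0.18 and -0.32). Pgk1, the first ATP-forming step, had 57.5, 37.4, 57.5 and 45.5 CPM in gonadal adipose, 10.2, 31.3, 36.9 and 34.4 CPM in subcutaneous adipose, and 46.7, 39.1, 51.7 and 50.4 CPM in blood. The subcutaneous libraries lay below those of blood and gonadal adipose, but the value of -0.72 (SE 0.30) against blood was not called (edgeR adjusted p = 0.0942). In the subcutaneous library of mouse 2846, 45.3% of the reads of Pgk1 and its copies went to copies, against at most 0.75% elsewhere. With copies added, an alternative chosen after the data were seen, Pgk1 was called lower (-0.62, edgeR adjusted p = 0.0461).

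Pgam1, the mutase of lower glycolysis (chr19:41911923-41918660), rose in gonadal adipose. It had 114.2, 112.4, 113.7 and 213.3 CPM in gonadal adipose, 17.4, 69.0, 46.2 and 164.6 CPM in subcutaneous adipose, and 47.0, 29.4, 32.8 and 45.3 CPM in blood. The 4 gonadal libraries were all above blood, while the subcutaneous libraries ran from below the lowest to above the highest blood library. The gonadal rise was 3.58-fold (log2 fold change 1.84, SE 0.52, edgeR adjusted p = 0.0234). The adjusted p was 0.0532 to 0.0709 without any 1 of the gonadal library of mouse 2668 and the blood libraries of mice 2771, 2683 and 2668, 0.075 with no filter on low counts, and 0.014 with mouse as a block. In subcutaneous adipose the log2 fold change was 0.95 (SE 0.51, edgeR adjusted p = 0.19), and without the library of mouse 2846 it was 1.302 (edgeR adjusted p = 0.0382). In that library 37.9% of the reads of Pgam1 and its copies were assigned to copies. With the copies added, Pgam1 remained called in gonadal adipose (1.79, edgeR adjusted p = 0.0121) and not in subcutaneous adipose (1.018, edgeR adjusted p = 0.103).

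Enolase makes phosphoenolpyruvate, and Eno1 is its main form outside muscle and nerve. Eno1 (chr4:150236721-150248879) had 143.2, 122.8, 204.2 and 126.0 CPM in gonadal adipose, 61.1, 94.8, 70.0 and 87.1 CPM in subcutaneous adipose, and 150, 122.3, 144.0 and 131.7 CPM in blood. Gonadal adipose and blood overlapped, and all 4 subcutaneous libraries lay below both. Against blood, Eno1 fell 1.75-fold in subcutaneous adipose (log2 fold change -0.81, SE 0.19, edgeR adjusted p = 0.00872) and had 0.12 (SE 0.19, edgeR adjusted p = 0.675) in gonadal adipose. Its 6 near-identical copies, led by Eno1b and Gm4735, took 35.6% to 48.8% of the combined reads in gonadal adipose, 35.2% to 48.3% in subcutaneous adipose and 37.7% to 45.8% in blood. Adding them left the subcutaneous value at -0.76 (edgeR adjusted p = 0.0125).

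Eno2, the enolase of neurons, was almost without reads in blood. It had 2.04, 1.80, 13.9 and 0.975 CPM in gonadal adipose, 6.59, 0.396, 5.88 and 0.883 CPM in subcutaneous adipose, and 0, 0.047, 0 and 0 CPM in blood. Every adipose library was above every blood library, and the values differed widely within each depot. Pooled over libraries, 425 gonadal reads and 134 subcutaneous reads stood against 1 blood read. The ratio was 466.6 (95% counting interval 83.3 to 18470) in gonadal adipose and 226.9 (40.0 to 9030) in subcutaneous adipose. Both were called (edgeR adjusted p = 0.00243 and 0.00354). Without the gonadal library of mouse 2683 the gonadal ratio was 122.0, and the subcutaneous ratio was 102.1 when mouse 2771 was left out. The gonadal library of mouse 2683 also had the highest monocyte marker sum, 6389 CPM, 93.3% of such reads being Fn1 over all libraries. None of the 4 genes of that list was called in either depot, and the part of other cells in Eno2 was not tested. In TPM, Eno2 reached 29.7% of enolase in the subcutaneous library of mouse 2846, the shallowest, and 19.5% in that of mouse 2771, and at most 5.66% in the other libraries. This sum leaves out the copies of Eno1, which took 46.0% and 48.3% of the reads of Eno1 and copies in those libraries. Transcripts that retain an intron held 0% to 81.2% of Eno2 reads in gonadal and 0% to 83.3% in subcutaneous adipose. Eno3, the muscle enolase, had 1.69 to 5.19 CPM over the 12 libraries and was not called (edgeR adjusted p = 0.954 and 0.216).

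**Figure D3:**
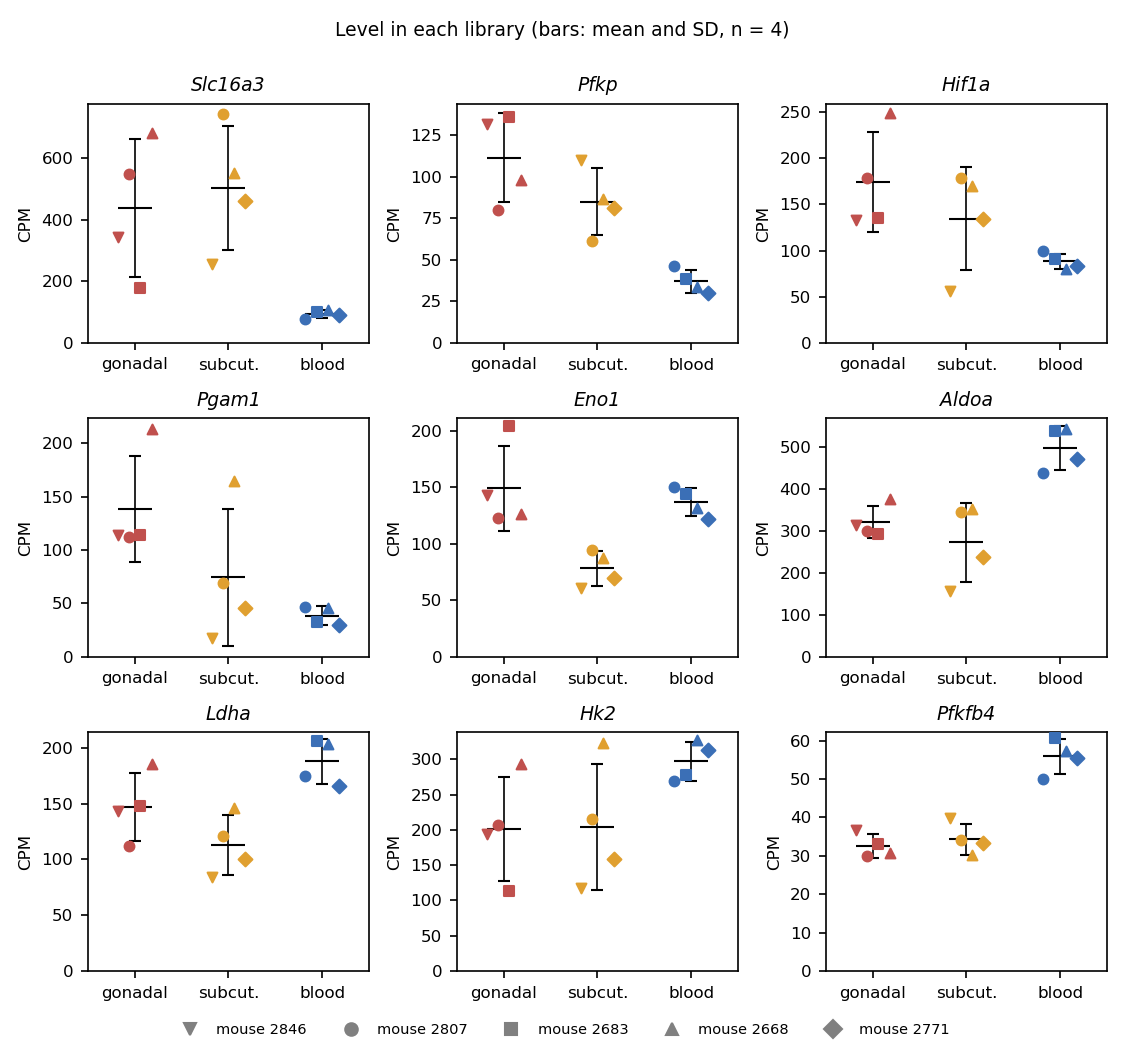
CPM in each library (y axis, from 0) of 9 genes by group, with gonadal adipose at the left, subcutaneous adipose in the middle and blood at the right; symbols mark the mouse and bars the mean and SD of 4 libraries. All adipose libraries are above blood for Slc16a3 (178.4 to 742.1 against 78.2 to 106.4 CPM) and below it for Aldoa and Pfkfb4.

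Pyruvate kinase, encoded by Pkm, makes pyruvate and ATP. It averaged 415.0 ± 71.3 CPM in gonadal adipose, 364.4 ± 123.8 CPM in subcutaneous adipose and 525.6 ± 59.9 CPM in blood (SD over 4 libraries each). The log2 fold changes were -0.34 (SE 0.22, edgeR adjusted p = 0.286) and -0.53 (SE 0.23, edgeR adjusted p = 0.0988), and Pkm was called lower in subcutaneous adipose without the library of mouse 2668 (-0.75, edgeR adjusted p = 0.0213). Pkm is spliced to include either an M1 or an M2 exon. M1 is the form of muscle and brain, and M2, whose enzyme can be regulated, that of most proliferating and immune cells. The exons are shown because they decide which enzyme a cell makes. They lie on the plus strand at chr9:59675029-59675195 (M1) and chr9:59675568-59675734 (M2) in GRCm38, and capitals mark the positions where the pair differ.
M1: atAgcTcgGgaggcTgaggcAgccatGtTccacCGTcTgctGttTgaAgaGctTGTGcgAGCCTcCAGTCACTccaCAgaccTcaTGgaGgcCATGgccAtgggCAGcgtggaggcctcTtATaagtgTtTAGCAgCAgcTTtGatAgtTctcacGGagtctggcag
M2: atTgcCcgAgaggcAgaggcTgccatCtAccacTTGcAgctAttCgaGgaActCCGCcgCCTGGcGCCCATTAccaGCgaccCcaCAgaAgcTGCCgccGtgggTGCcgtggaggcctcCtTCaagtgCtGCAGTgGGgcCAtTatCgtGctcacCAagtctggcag
Both exons have 167 bases, and 61.7% of positions are identical. By deposited TPM of transcripts that hold either exon, M2 made up 80.3%, 81.2%, 90.7% and 76.6% in gonadal adipose, 100%, 84.6%, 64.3% and 70.7% in subcutaneous adipose, and 92.8%, 89.9%, 80.7% and 86.8% in blood. M2 was the larger part in each of the 12 libraries, and the groups overlapped.

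Ldha encodes the lactate dehydrogenase subunit that favours lactate formation. It had 143.5, 111.9, 147.5 and 185.8 CPM in gonadal adipose, 84.5, 121.3, 99.9 and 146.0 CPM in subcutaneous adipose, and 175.1, 166.2, 206.6 and 203.5 CPM in blood. The subcutaneous libraries were all below blood, and the highest gonadal library reached into the blood range. Ldha (chr7:46841475-46855627) fell 1.66-fold in subcutaneous adipose (log2 fold change -0.73, SE 0.19, edgeR adjusted p = 0.0153) and was not called in gonadal adipose (-0.35, SE 0.19, edgeR adjusted p = 0.193). Ldhb, which encodes the heart-type subunit, had 0 to 2.09 CPM in gonadal adipose, 0 to 1.11 CPM in subcutaneous adipose and 0 to 0.496 CPM in blood, and its copy Gm5514 took 40.0% of the reads of the pair.

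The lactate exporter gene Slc16a3, which encodes MCT4, rose most among the well-expressed genes. Slc16a3 (chr11:120948480-120960868, with the RefSeq start of the promoter shown above lying inside this gene) had 342.3, 548.1, 178.4 and 682.4 CPM in gonadal adipose, 255.1, 742.1, 460.2 and 552.5 CPM in subcutaneous adipose, and 78.2, 89.0, 101.9 and 106.4 CPM in blood. The lowest adipose library was above the highest blood library, and adipose libraries spread far more than those of blood. The rise was 4.66-fold in gonadal adipose (log2 fold change 2.22, SE 0.39, edgeR adjusted p = 0.00186) and 5.35-fold in subcutaneous adipose (2.42, SE 0.40, edgeR adjusted p = 0.0012). Per length it ranked first of the 37 genes by median TPM in both depots and ninth in blood, where Aldoa ranked first. Slc16a3 had 46.3 to 182.5 TPM and Aldoa 80.1 to 117.4 TPM in gonadal adipose, so Slc16a3 was not first in every gonadal library. In subcutaneous adipose the ranges overlapped as well, at 53.5 to 243.6 TPM for Slc16a3 and 30.3 to 128.4 TPM for Aldoa. The retained-intron transcript of Slc16a3 took 2.36% to 4.27% of reads in gonadal adipose, 2.46% to 5.77% in subcutaneous adipose and 1.11% to 1.91% in blood, so little of the gene's reads lay there. Slc16a1, which encodes the more widespread MCT1, averaged 5.05 ± 5.66 CPM in gonadal adipose, 3.27 ± 2.28 CPM in subcutaneous adipose and 2.12 ± 1.01 CPM in blood (SD over 4 libraries each) and was not called (edgeR adjusted p = 0.32 and 0.609).

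Pyruvate enters the mitochondrion through the carrier of Mpc1 and Mpc2, and neither subunit gene was called. Mpc1 had 11.4 ± 1.33 CPM in gonadal adipose, 9.56 ± 1.47 CPM in subcutaneous adipose and 12.1 ± 3.06 CPM in blood (SD over 4 libraries each). Nor was any gene of the pyruvate dehydrogenase complex called. Pdha1, its catalytic subunit, averaged 49.5 ± 3.88 CPM in gonadal adipose, 46.8 ± 6.98 CPM in subcutaneous adipose and 51.1 ± 4.50 CPM in blood (SD over 4 libraries each), with log2 fold changes of -0.04 and -0.12 (SE 0.14 each). Pdhb, the partner subunit, was at 0.27 and 0.33, Dlat, the acetyl-transferring core, at 0.03 and -0.04, and Dld, the dehydrogenase that reoxidises it, at 0.36 and -0.06, in gonadal and subcutaneous adipose. Without the subcutaneous library of mouse 2846, Pdhb was called higher in subcutaneous adipose (0.57, edgeR adjusted p = 0.046). Pdp1, the phosphatase that activates the complex, had log2 fold changes of -0.26 and -0.24 (SE 0.42 each).

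Pdk1, Pdk2 and Pdk3 encode kinases that switch the complex off, and of these Pdk2 alone was called, in subcutaneous adipose. Pdk2 (chr11:95026258-95041354, minus strand) had 10.2, 9.08, 11.1 and 7.19 CPM in gonadal adipose, 3.89, 8.87, 7.56 and 8.61 CPM in subcutaneous adipose, and 14.2, 15.4, 13.7 and 17.6 CPM in blood. All adipose libraries were below all blood libraries. Pdk2 fell 2.08-fold in subcutaneous adipose (log2 fold change -1.05, SE 0.27, edgeR adjusted p = 0.0142, or 0.0605 blocked on the animal). The length offset ended this call too (-0.61, edgeR adjusted p = 0.295). In gonadal adipose it was -0.70 (SE 0.27, edgeR adjusted p = 0.0725, or 0.022 without subcutaneous mouse 2846). In all, 3 of 20 alternatives called Pdk2 there, DESeq2 among them. Pdk3 averaged 8.11 ± 2.04 CPM in gonadal adipose, 7.39 ± 3.59 CPM in subcutaneous adipose and 4.56 ± 0.811 CPM in blood (SD over 4 libraries each) and was not called (edgeR adjusted p = 0.147 and 0.207). When subcutaneous mouse 2846, at 2.10 CPM, was left out, Pdk3 was called higher in both depots (log2 fold changes 0.84 and 1.024, edgeR adjusted p = 0.0283 and 0.0203). Pdk1, a target of the hypoxia-inducible factor, had 8.42 ± 2.73 CPM in gonadal adipose, 8.62 ± 3.31 CPM in subcutaneous adipose and 8.85 ± 1.15 CPM in blood (SD over 4 libraries each, edgeR adjusted p = 0.892 and 0.966).

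Hif1a encodes the oxygen-regulated subunit of the hypoxia-inducible factor, which is controlled largely through the stability of its protein, a level that RNA does not measure. Hif1a (chr12:73901375-73947530) had 133.5, 178.5, 135.2 and 248.9 CPM in gonadal adipose, 55.7, 178.7, 133.9 and 170.1 CPM in subcutaneous adipose, and 99.0, 82.8, 90.4 and 80.5 CPM in blood. All gonadal libraries were above blood, and so were the subcutaneous libraries apart from that of mouse 2846, which was below. The gonadal rise was 1.97-fold (log2 fold change 0.98, SE 0.31, edgeR adjusted p = 0.0327, or 0.0136 blocked on the animal). It was not called, with an edgeR adjusted p of 0.0509 to 0.0968, when 1 of these was left out: any blood library, gonadal adipose of mouse 2807 or 2668, or subcutaneous adipose of mouse 2771. In subcutaneous adipose the log2 fold change was 0.61 (SE 0.31, edgeR adjusted p = 0.153), and 0.89 (edgeR adjusted p = 0.0105) without the library of mouse 2846.

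Between the depots no gene of the 36 passed the threshold in edgeR, and 3 had an unadjusted p under 0.05. The median log2 fold change of gonadal over subcutaneous adipose was 0.18, beside -0.01 for all tested genes. Only Pgk1 and Eno1 had all gonadal libraries above all subcutaneous ones, and no gene was wholly lower. Of all tested genes 3.62% were apart in this way, 1.94% above and 1.69% below. Eno1 averaged 149.0 ± 37.9 CPM in gonadal and 78.2 ± 15.4 CPM in subcutaneous adipose (SD over 4 libraries each), a log2 fold change of 0.93 (SE 0.19, edgeR adjusted p = 0.171). DESeq2 called it, with an adjusted p of 0.0029, whereas over the 20 alternatives the adjusted p ranged from that value to 0.684, with 0.0961 the lowest from edgeR. Slc16a3 had -0.20 (SE 0.38, edgeR adjusted p = 0.924) and Pfkfb4 -0.07 (SE 0.14, edgeR adjusted p = 0.925) between the depots.

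**Figure D4:**
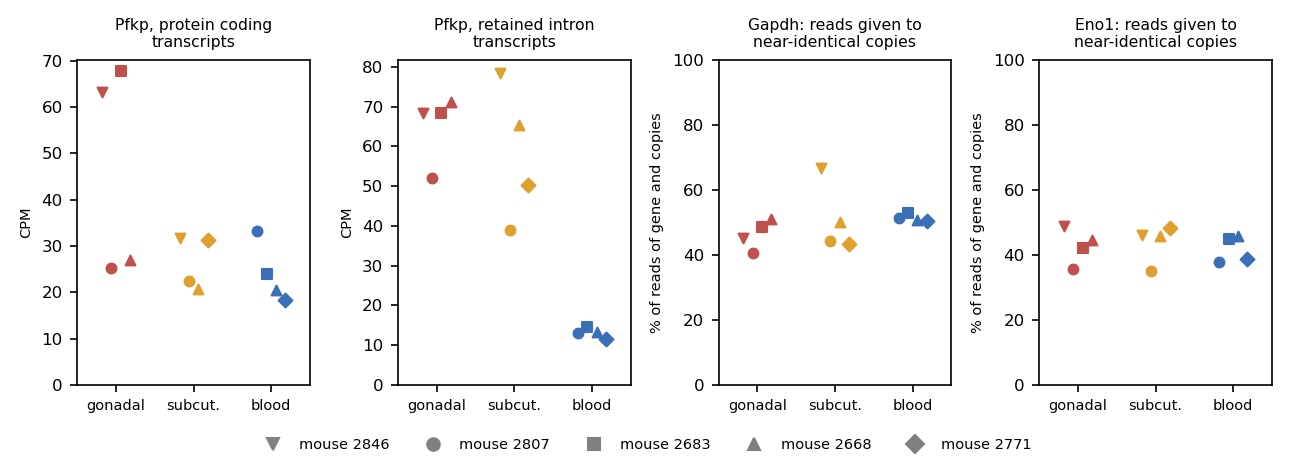
From left to right, CPM of the protein-coding and of the retained-intron transcripts of Pfkp, and the percent of reads of Gapdh and of Eno1 plus their near-identical copies that were assigned to the copies, in each library, with gonadal adipose at the left of each panel and blood at the right. Retained-intron transcripts of Pfkp reach 38.9 to 78.4 CPM in adipose and 11.5 to 14.6 CPM in blood, while copies of Gapdh hold 66.8% in the subcutaneous library of mouse 2846.

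Genes next to the pathway were counted from fixed lists in the same fit, and no list was tested as a whole. Of all tested genes, 15.4% were called higher and 11.6% lower in gonadal adipose, with a median log2 fold change of 0.08. In subcutaneous adipose these values were 15.4%, 11.4% and 0.07. Of 22 tested genes that also belong to glycolysis and pyruvate use, 5 rose and 1 fell in gonadal adipose (median log2 fold change 0.43) and 3 rose and 4 fell in subcutaneous adipose (0.29). Pdk4, the kinase that restrains pyruvate oxidation in fasting, had 0 reads in blood and 5.18 to 53.5 CPM in gonadal adipose. Against a floor of 3 reads over the blood group it was at least 642.2-fold higher there, and at least 224.6-fold without the gonadal library of mouse 2683, where it was highest. In subcutaneous adipose 142 Pdk4 reads stood against 0 in blood, at least 80.2-fold more, and at least 55.0-fold without mouse 2771. Adpgk, an ADP-dependent glucokinase, fell in gonadal adipose (-0.80, SE 0.20, edgeR adjusted p = 0.0117), and the transporter gene Slc2a6 rose in subcutaneous adipose (1.16, SE 0.28, edgeR adjusted p = 0.00937). Pgp, a phosphatase that removes toxic side products of glycolysis, fell in subcutaneous adipose (-0.84, SE 0.24, edgeR adjusted p = 0.0237).

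The pentose phosphate pathway draws glucose 6-phosphate away to make NADPH and ribose. Of its 8 genes none rose, while 4 fell in gonadal adipose (median log2 fold change -0.75) and 5 in subcutaneous adipose (-0.9997). Taldo1, a transaldolase that links it back to glycolysis, had 182.2 to 407.8 CPM in gonadal adipose, 163.5 to 327.5 CPM in subcutaneous adipose and 700.9 to 936.5 CPM in blood. It fell 3.01-fold and 3.29-fold (log2 fold changes -1.59 and -1.72, SE 0.30 each, edgeR adjusted p = 0.0023 and 0.0016). Of 12 glycogen genes, 2 rose and 3 fell in gonadal adipose (median -0.22), and none rose and 2 fell in subcutaneous adipose (median -0.17). Pygl, the liver-type glycogen phosphorylase, fell in both (-1.08, SE 0.34, and -1.30, SE 0.34, edgeR adjusted p = 0.0311 and 0.0146), whereas Pygb, the brain-type form, rose in gonadal adipose (0.64, SE 0.21, edgeR adjusted p = 0.0351). In subcutaneous adipose the other called gene was Ugp2, which makes the glycogen precursor (-0.46, SE 0.15, edgeR adjusted p = 0.0416).

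Of 19 TCA cycle genes, 4 rose and 1 fell in gonadal adipose (median log2 fold change 0.22), and 4 rose and 2 fell in subcutaneous adipose (-0.03). Mdh2, the mitochondrial malate dehydrogenase, had 85.7 to 112.1 CPM in gonadal adipose, 60.5 to 109.8 CPM in subcutaneous adipose and 201.3 to 276.0 CPM in blood. It fell in both (-1.21, SE 0.18, and -1.39, SE 0.19, edgeR adjusted p = 0.000654 and 0.000291), and Idh2 rose in both (0.44 and 0.55, SE 0.13 each, edgeR adjusted p = 0.0246 and 0.00992). Of 21 other genes of the hypoxia-inducible factor pathway and its targets, 3 rose and 4 fell in gonadal adipose (median -0.23) and 5 rose and 3 fell in subcutaneous adipose (-0.20). Their extremes lay far apart, as Vegfa, the vascular growth factor, had 142.9 to 633.2 CPM in gonadal adipose, 274.6 to 751.5 CPM in subcutaneous adipose and 3.52 to 5.66 CPM in blood. Bnip3l, a mitophagy receptor, was lower, at 64.0 to 97.7 CPM in gonadal adipose, 54.7 to 75.5 CPM in subcutaneous adipose and 120.1 to 186.2 CPM in blood (edgeR adjusted p = 0.00268 and 0.000686). Of 11 genes of glucose sensing and growth control, 2 rose and 3 fell in gonadal adipose (median -0.44) and 2 rose and 4 fell in subcutaneous adipose (-0.36). Mxd1, a MAX-binding repressor that opposes MYC, rose in both (1.22 and 1.08, SE 0.36 each, edgeR adjusted p = 0.0246 and 0.0408), with gonadal adipose overlapping blood. In this list Prkab1, an AMPK subunit, fell in gonadal adipose (-1.14, SE 0.22, edgeR adjusted p = 0.00275), and Myc fell in subcutaneous adipose (-1.38, SE 0.44, edgeR adjusted p = 0.035). No gene of these 6 lists was called between the depots by edgeR.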

How the data were processed

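Stranded total RNA libraries of sorted eosinophils (SMARTer low-input kit, per the labels) also hold unspliced and non-coding RNA. Per the submitters' processing notes, the authors used Salmon 1.6.0, Trim Galore 0.6.4 and DESeq2 1.30.1 with mm10. The deposited tables give, per the file headers, estimated counts, TPM and transcript lengths for 140992 transcripts. Neither the annotation release nor the strand setting is given in the sources used here, and overlapping or antisense genes may therefore share reads. Deposited TPM compared genes or transcripts within a library only, since structured RNAs took 77.4% to 89.0% of it.

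Transcripts were assigned to genes with GENCODE M21 on GRCm38. Of them 1201 did not match, with 0.351% to 0.538% of reads, and stayed out. Expected counts were summed per gene and rounded, and both gene IDs of Aldoa were joined. All 12 libraries entered 1 edgeR 4.0.16 fit (R 4.3.3, quasi-likelihood test, robust, TMM, filterByExpr), with tissue as the only term and Benjamini-Hochberg adjustment over 15367 genes. The common biological coefficient of variation was 0.545. The SE is the log2 fold change divided by the square root of F, and the fit was tested on simulated data. Intervals and floors pool the reads of a group, so they cover counting error only and not the spread between mice. The labels name no molecular identifiers, so reads and not molecules were counted. The shallowest library, with 4379954 reads, gives the least precise values.

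Near-identical copies were sought with blastn 2.17.0 (at least 90% identity over 200 bases and 50% of the copy's transcript), and 15 of the 37 genes had some. The labels number the mice, so equal numbers are the same animal. Deviations from group means correlated at -0.11 to 0.358 over 9 same-mouse pairs. Alternatives were mouse as a block, DESeq2 1.42.0, RLE size factors, no filter, a length offset, protein-coding transcripts, copies added, and libraries left out. The genes and lists were chosen with earlier results of these data known. All 37 genes could be named, and of each other list and comparison the called gene with the largest change in each direction at a mean of at least 20 CPM, or every called gene where 3 or fewer were called. The labels name no sequencing batch.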

Additional observations from a re-analysis of the deposited data

Results flagged for a closer look

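Within a group of 4 libraries, 7 of 110 gene and group combinations had 1 library far from the other 3 by Dixon's test at the 95% level, which chance gives for about 1 in 20. The gonadal library of mouse 2668 stood apart for Pgam1, at 213.3 CPM against 112.4 to 114.2 CPM in the other gonadal libraries, and for Pdhb, at 40.8 CPM against 32.9 CPM in each of the others. The gonadal library of mouse 2683 stood apart for Eno2, at 13.9 CPM against 0.975 to 2.04 CPM, and for Slc16a1, at 13.5 CPM against 1.52 to 2.74 CPM. That library also had the highest sum of the monocyte list, of which Fn1 made up 93.3% over all libraries. Pfkfb3 had 125.2 CPM in the gonadal library of mouse 2807 and 80.4 to 87.3 CPM in the other gonadal libraries. Aldoc, an aldolase of brain, had 1.90 CPM in the blood library of mouse 2807 and 0 to 0.248 CPM in the other blood libraries. Ldhb had 1.11 CPM in the subcutaneous library of mouse 2807 and 0 in the other subcutaneous libraries.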

How the results depend on the processing

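No direction of a called gene reversed under the 20 alternatives. The numbers in gonadal adipose against blood were 5 higher and 1 lower. The lower number was 3 with DESeq2, 2 with RLE size factors, 0 with the length offset and 3 when subcutaneous mouse 2846 and blood mouse 2807 were both left out. In subcutaneous adipose against blood, 6 were higher and 6 lower. With mouse as a block (a pairing by animal) 3 were higher, having lost Pfkm, Pfkfb2 and Pfkfb3, and with the length offset 3 were lower, having lost Hk1, Pfkfb4 and Pdk2. Against blood the block ended 4 calls in all, the last that of Pdk2, and changed no other call among the 37 genes. Between depots 0 were called, and 1 higher with DESeq2. Leaving out single libraries gave 3 to 7 higher and 1 to 3 lower for gonadal adipose, 4 to 8 higher and 5 to 9 lower for subcutaneous adipose, and 0 between depots. Eno2 and Slc16a3 kept both calls under every alternative run, and Aldoa, Eno1 and Ldha kept theirs in subcutaneous adipose. Thus 2 of the 6 called genes in gonadal and 5 of the 12 in subcutaneous adipose kept the call throughout. Over the called genes 105 of 120 repeats kept the call in gonadal and 212 of 240 in subcutaneous adipose. These repeats share most of their libraries and are not independent. Near-identical copies were added after the data were seen. Depth limits Eno2, Eno3, Pfkm, Slc16a1, Aldoc and Ldhb, which had few reads.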
